A study of Sedum plumbizincicola and Sedum alfredii with 13 samples.

Results

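The roots of Sedum plumbizincicola, a cadmium (Cd) and zinc hyperaccumulator, were compared with the roots of Sedum alfredii (NHE), which the study's title gives as a non-hyperaccumulator. The comparison used 6 of the 12 Illumina libraries: S. plumbizincicola roots at 0 µM CdCl2 (libraries A and B), S. plumbizincicola roots at 10 µM CdCl2 (libraries A and B), and 1 library of S. alfredii roots at each of the same doses, all sampled 3 days after treatment began. Of 66584 transcript clusters in the deposited tables, 12148 had at least 10 estimated reads in each of the 6 root libraries, and these are described here as transcripts. They came from 10931 assembly components, a component being the clusters that share the first part of their ID. The files give cluster IDs with no gene names, so no function can be attached to a transcript and the root identity of the samples could not be checked against marker genes.

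Metal hyperaccumulators take up metals in the root, load them into the xylem and store them in leaf cells, whereas most other plants hold much of the Cd they absorb in root vacuoles. Root transport proteins and chelators such as nicotianamine and phytochelatins are the parts of this route usually compared between accumulating and non-accumulating relatives. Such comparisons commonly find differences in the constant level of a transcript, present with or without the metal, as well as differences in its response. The present design separates these by asking how far the species differed and whether the difference depended on dose.

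Total estimated reads ranged from 1260160 to 2403858 in the S. plumbizincicola root libraries and were 3434922 and 3956761 in the untreated and Cd-treated S. alfredii root libraries. The 12148 transcripts held 88.2% to 91.0% of the S. plumbizincicola root reads and 84.3% and 82.2% of the S. alfredii root reads. The rule left out 1240 transcripts with at least 10 reads in all 4 S. plumbizincicola root libraries and fewer in an S. alfredii root library, 513 of them with 0 reads in both of the latter. It left out 8350 with the reverse pattern, 2128 of them with 0 reads in all 4 S. plumbizincicola root libraries. These counts do not compare like with like. The minimum of 10 reads is 3.07 and 2.63 CPM in the deeper S. alfredii root libraries and 3.96 to 7.98 CPM in those of S. plumbizincicola. The number of libraries that had to pass also differed. The 414 transcripts just inside the rule (lowest library at 10 to under 11 reads) had a median absolute log2 species ratio of 0.98, and the 457 just outside (9 to under 10) had 0.93, against 0.68 for all 12148. Both species were measured against a single transcript set, so a read of either may have aligned less well to sequence assembled from the other; this cannot be told apart from a difference in RNA level. Nothing in the labels tells if 1 plant or a pool went into each library, so p-values measure the spread between these libraries only. In whole roots, fewer cells of a type and less RNA per cell cannot be told apart. Levels are read counts scaled to normalised library size (CPM) unless TPM, which also divides by length, is named.

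The roots of the 2 species differed in a large share of the transcripts read in both. With dose as a term, 7320 of 12148 transcripts differed between species (60.3%), 3609 higher in S. plumbizincicola (29.7%) and 3711 higher in S. alfredii (30.5%; edgeR quasi-likelihood F-test, two-sided, Benjamini-Hochberg adjusted p at or under 0.05). The share called was 48% with limma on log2(TPM + 1), and 42% and 42.1% without the untreated and the Cd-treated S. alfredii library, respectively. Since every transcript was read in all 6 libraries by rule, presence in 1 species only could not occur here and the differences are graded by construction. The median log2 ratio was 1.12 among transcripts higher in S. plumbizincicola (interquartile range 0.79 to 1.63) and -1.04 among those higher in S. alfredii (-1.52 to -0.75). Of the calls, 4063 were 2-fold or larger (33.4% of all tested), 2076 toward S. plumbizincicola and 1987 toward S. alfredii. The near-even split depends on the scaling. With upper-quartile factors in place of TMM on the same transcripts, the median log2 ratio moved from 0.01 to 0.14, with 4165 calls toward S. plumbizincicola and 3170 toward S. alfredii. On the length-corrected scale calls were partly exchanged. With offsets for the effective length of each transcript in each library 6910 were called. Of these 5933 were among the 7320 and 5846 of those in the same direction.

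By size, 5292 transcripts (43.6%) lay within 1.5-fold of equal levels, 2777 (22.9%) between 1.5- and 2-fold, 3097 (25.5%) between 2- and 4-fold, 753 (6.20%) between 4- and 8-fold, and 229 (1.89%) at 8-fold or more. Of the last class 133 were higher in S. plumbizincicola and 96 in S. alfredii, and the test called all 229. In the class within 1.5-fold the test called 669 (12.6%). Equality was bounded as well: for 4868 transcripts (40.1%) the 95% interval of the species ratio lay within 2-fold in either direction. Among the 4828 transcripts that were not called, 4159 had such an interval, and for the other 669 the interval reached past 2-fold.

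The same CPM values can be read library by library, as a description and no further test. The 4 S. plumbizincicola libraries all lay above both S. alfredii libraries for 4057 transcripts (33.4%) and all below for 4230 (34.8%), together 8287. Of the 7320 calls 7124 (97.3%) were among these, and 196 calls had overlapping groups. Groups of 4 and 2 libraries can also separate without a species difference. Of the 5292 transcripts within 1.5-fold of equal levels, 1710 had groups that did not overlap. Between 1 library of each species at the same dose, 34.0% to 34.8% of transcripts differed by 2-fold or more. Between replicate libraries A and B of S. plumbizincicola the share was 3.39% without Cd and 3.07% with Cd, and between doses within a species it was 1.32% to 2.15%. Differences of 4-fold or more covered 8.14% to 8.49% of transcripts between species and 0.0659% to 0.222% between replicates.

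**Figure D1:**
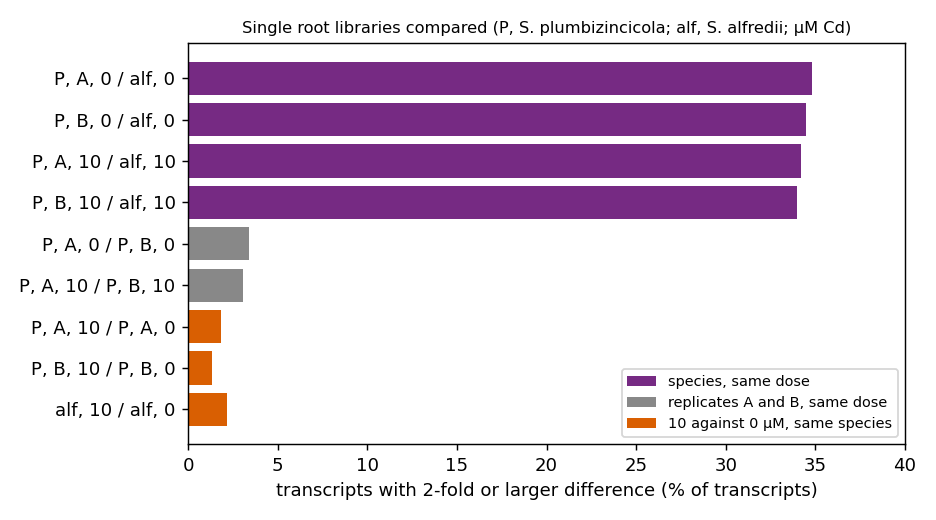
Share of the 12148 transcripts (x axis, percent) that differed by 2-fold or more in log2 CPM (prior count 2) between 2 single root libraries (y axis; P is S. plumbizincicola, alf is S. alfredii, A and B are replicates, 0 and 10 are µM Cd). The 4 species pairs stand at 34.0% to 34.8%, the replicate pairs at 3.07% and 3.39%, and the dose pairs at 1.32% to 2.15%.

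The largest difference toward S. plumbizincicola was that of c33410_g1, the only cluster of its component. It stood at 13933 and 10166 CPM in untreated libraries A and B, 9834 and 10637 CPM in Cd-treated A and B, and 55.6 and 52.0 CPM in untreated and Cd-treated S. alfredii roots. All 4 hyperaccumulator libraries were thus far above both others, and neither species showed a wide spread between doses (log2 ratio 7.69, SE 0.40, adjusted p = 2.39e-07). On the length-corrected scale it was at 5683 to 6349 TPM in S. plumbizincicola and 55.3 and 60.8 TPM in S. alfredii. With length offsets its log2 ratio was smaller, at 6.70 (SE 0.39).

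The called transcript of highest level toward S. plumbizincicola was c32140_g1. Its CPM were 23915 and 14296 in untreated A and B and 14147 and 12374 in Cd-treated A and B, against 3994 and 2785 in untreated and Cd-treated S. alfredii. The groups did not overlap, although untreated library A was well above the other 3 (log2 ratio 2.25, SE 0.34, adjusted p = 0.000196). Its 39824 to 60880 TPM in S. plumbizincicola against 5293 and 3670 TPM in S. alfredii show the same order per length.

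In the other direction c41990_g1 led, at 7.98 and 8.32 CPM in untreated A and B, 8.87 and 14.0 CPM in Cd-treated A and B, and 3705 and 1177 CPM in untreated and Cd-treated S. alfredii. The S. plumbizincicola values rest on 10 to 24 reads each, close to the minimum of the rule, and the S. alfredii libraries differ from each other by more than the 4 S. plumbizincicola libraries do (log2 ratio -7.80, SE 0.42, adjusted p = 7.1e-07). Its component holds 5 clusters, and the summed reads of that component gave a smaller log2 ratio of -3.87 (SE 0.40, adjusted p = 6.4e-05).

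The called transcript of highest level toward S. alfredii was c41037_g1, at 2419 and 2111 CPM in untreated A and B, 2016 and 1943 CPM in Cd-treated A and B, and 12312 and 6067 CPM in untreated and Cd-treated S. alfredii. The 4 S. plumbizincicola libraries were close together and both S. alfredii libraries above them (log2 ratio -2.05, SE 0.26, adjusted p = 5.6e-05). The summed reads of its 4-cluster component gave a log2 ratio of -2.0 (SE 0.26, adjusted p = 8e-05).

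**Figure D2:**
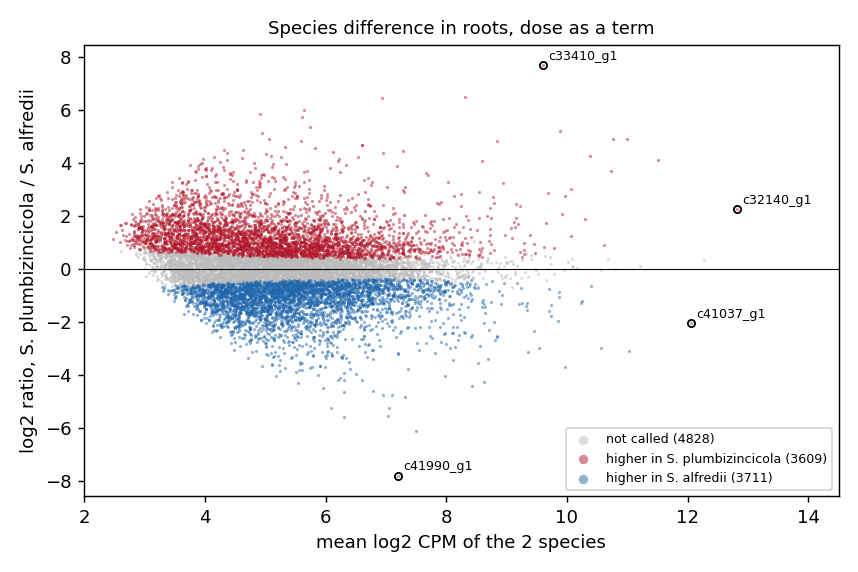
Log2 ratio of S. plumbizincicola to S. alfredii in roots (y axis) against the mean log2 CPM of the species (x axis), 1 point per transcript, coloured by the edgeR call. The 3609 transcripts called higher in S. plumbizincicola and the 3711 called higher in S. alfredii lie on either side of 4828 that were not called, and the 4 circled transcripts are those described above.

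Which transcripts dominated the root also differed. Ranked by mean TPM among these, the top 100 of each species had 41 in common (41% of each list). The top 500 had 268 (53.6%) and the top 1000 had 575 (57.5%). Transcripts left out by the rule, however abundant in 1 species, could not enter these lists. The top 100 took 16.9% of S. plumbizincicola root reads and the top 100 of S. alfredii took 10.4% of its own. Of the 100 leading in S. plumbizincicola, 62 were called higher there, and of the 100 leading in S. alfredii, 66 were called higher there. An excess of this direction follows from ranking each list by the level in 1 species.

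Direction varied with level. In the lowest quartile of transcripts by mean level, 1268 were called higher in S. plumbizincicola and 487 higher in S. alfredii, whereas in the highest quartile the counts were 742 and 1110. The minimum of 10 reads did not fall at the same level in all libraries: it corresponded to 3.96 to 7.98 CPM in the S. plumbizincicola roots and to 3.07 and 2.63 CPM in untreated and Cd-treated S. alfredii roots. With 1 floor of 8 CPM in every library, which kept 10505 transcripts, the lowest quartile held 774 toward S. plumbizincicola and 533 toward S. alfredii. The share called was much the same at all levels, from 57.8% in the lowest quartile to 61.4% in the second. Differences of 2-fold or more covered 37.8% of the lowest and 29.0% of the highest quartile, while between untreated replicates A and B they covered 5.40% and 2.30%.

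Short transcripts and transcripts with 1 isoform differed most often. Transcripts with 1 isoform were called in 736 of 1065 cases (69.1%), 454 higher in S. plumbizincicola and 282 higher in S. alfredii, and 48.2% of them differed by 2-fold or more. Transcripts with 5 or more isoforms were called in 3267 of 5518 cases (59.2%), 1382 and 1885 in the same order, with 29.9% at 2-fold or more. By length, 45.4% of the 480 transcripts under 500 bases and 28.5% of the 2981 of 2000 bases or more differed by 2-fold. The share past 2-fold between untreated replicates was also higher in the shorter class, at 7.92% against 3.49%. By isoform number that share was 6.29% with 1 isoform and 2.36% with 5 or more. Median length was 1504 bases for calls toward S. plumbizincicola, 1320 for calls toward S. alfredii and 1460 for transcripts not called. These are descriptions with no test.

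Neighbours in a component did not always share a direction. In 453 components with 2 or more called transcripts, 264 had all calls in 1 direction and 189 had calls in both. Counted as pairs of called transcripts, 322 agreed in direction and 210 (39.5%) were opposite, so agreement was the more frequent outcome. The widest gap was in component c33706, where c33706_g3 was at 9.58, 4.75, 13.3 and 9.33 CPM in untreated A and B and Cd-treated A and B against 3.07 and 3.15 CPM in untreated and Cd-treated S. alfredii (log2 ratio 1.48, SE 0.37, adjusted p = 0.00456). Its neighbour c33706_g1 was at 11.2, 9.90, 11.8 and 10.5 CPM against 207 and 750 CPM (log2 ratio -5.25, SE 0.31, adjusted p = 7.75e-07). The libraries of the species did not overlap for either cluster. For c33706_g3 the gap was narrow, and the root libraries held 10 to 18 reads each. The minimum of 10 reads is 3.96 to 7.98 CPM in S. plumbizincicola roots. That is above both S. alfredii values of c33706_g3, so the rule itself fixed the order of the species for this cluster. Without the Cd-treated S. alfredii library the call on c33706_g3 was lost (adjusted p = 0.137). Summed over its 5 clusters the component was lower in S. plumbizincicola (log2 ratio -1.45, SE 0.26, adjusted p = 0.000696).

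Counting can split reads among similar clusters of 1 component, so the test was repeated on component sums. Of 11390 components 6895 (60.5%) were called. Of the 3523 called transcripts that lie in components of several clusters, 2767 (78.5%) were called in the same direction as a sum, 124 in the opposite direction, and for 632 the sum was not called. Among transcripts in such components, 551 had a neighbour read in both S. alfredii root libraries at 10 or more and at 0 in S. plumbizincicola roots. These were called toward S. plumbizincicola in 24.5% and toward S. alfredii in 37.6% of cases. The 206 with a neighbour of the opposite kind had 33.0% and 29.1%, and the 11440 of all 12148 with neither had 29.9% and 30.2%; a transcript can have neighbours of both kinds. Whether divided reads set these calls was not tested further.

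The species ratio was then taken at each dose, each from its own libraries. Scaling and the estimate of spread were shared, since the 2 contrasts came from 1 fit to all 6 libraries. At 0 µM 5106 transcripts differed between species (42%), 2469 higher in S. plumbizincicola (20.3%) and 2637 higher in S. alfredii (21.7%), and at 10 µM 5083 (41.8%), 2495 (20.5%) and 2588 (21.3%) in the same order, from a fit with species, dose and their interaction. At both doses 4077 were called, 4073 of them in the same direction and 4 in opposite directions. With a shared estimate of spread these are not independent tests. DESeq2 called fewer, 2832 (23.3%) at 0 µM and 2654 (21.8%) at 10 µM, and limma on log2(TPM + 1) called 3331 (27.4%) and 3279 (27%). Each of these contrasts sets 2 libraries against 1, and S. alfredii is assumed to vary like the S. plumbizincicola pairs. Across the 12148 transcripts, which share the transcript set and its lengths, the log2 ratios at the 2 doses had a Pearson correlation of 0.924 and a Spearman correlation of 0.914.

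Ordered by the untreated ratio, the sign of the difference was mostly kept in Cd-treated roots. Of the 158 transcripts at 8-fold or more toward S. plumbizincicola without Cd (median log2 ratio 3.57), all 158 had the same sign with Cd, with a median of 3.36. Of the 117 at 8-fold or more toward S. alfredii (median -3.40), all 117 kept the sign, with a median of -3.22. In the 2- to 4-fold classes 1569 of 1581 transcripts toward S. plumbizincicola (99.2%) and 1556 of 1575 toward S. alfredii (98.8%) kept it, and in the class within 1.5-fold 3849 of 5146 (74.8%). These smaller medians with Cd are those of classes chosen on the untreated libraries, and whether that choice made them smaller was not tested. Classes chosen on the Cd-treated libraries had medians of 3.50 and -3.57 there and 3.49 and -3.39 without Cd.

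Most estimated changes of the ratio between doses were under 2-fold. With a single S. alfredii library per dose, the data cannot show that true changes were rare. The median absolute change was 0.26 on the log2 scale, below its median SE of 0.43, and 481 transcripts (3.96%) changed by 2-fold or more, 289 toward S. plumbizincicola with Cd and 192 toward S. alfredii. For 182 of the 481 the single S. alfredii libraries differed by 2-fold or more between doses, and for 21 the S. plumbizincicola means did; 6 are in both counts, and 284 in neither. The share that changed by 2-fold was higher in classes of larger untreated ratio. It was 26.5% at 8-fold or more toward S. alfredii, 12% at 8-fold or more toward S. plumbizincicola, and 2.51% within 1.5-fold. In classes chosen on the Cd-treated libraries the shares were 20.7%, 16.4% and 2.54% in the same order. The change includes the ratio that set each class, so such a rise can follow from the choice of classes.

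**Figure D3:**
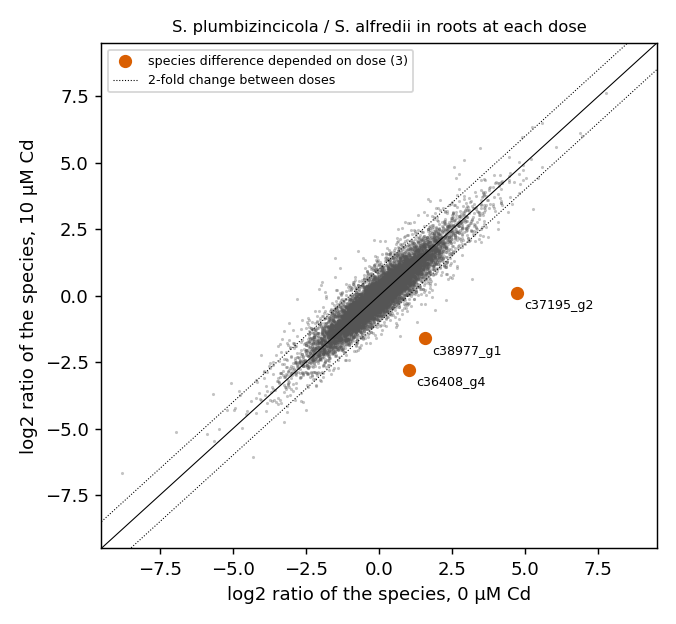
Log2 ratio of S. plumbizincicola to S. alfredii in roots at 0 µM Cd (x axis) and at 10 µM Cd (y axis), 1 point per transcript; the solid line marks equal ratios and the dotted lines a 2-fold change between doses. Of 12148 transcripts 481 fall outside the dotted lines, and the 3 large points are those whose species difference depended on dose by the interaction test.

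The interaction test called 3 of 12148 transcripts (0.0247%), each with a ratio more in favour of S. alfredii under Cd (edgeR, 429 at an unadjusted p under 0.05, 273 of them positive). DESeq2's Wald test called 8, the same 3 among them, with 4 in each direction. All 3 transcripts were also among the calls when any 1 of the 4 S. plumbizincicola root libraries was left out, but the count then rose to 22 without untreated A (17 of them toward S. plumbizincicola under Cd), 14 without untreated B, 10 without Cd-treated A and 5 without Cd-treated B. With edgeR offsets for effective length in each library none of the 3 was called (adjusted p = 0.103 to 0.175). All 3 lie in components of several clusters. On component sums the interaction test called 2 of 11390, each with a ratio more in favour of S. alfredii under Cd. Whether reads divided among neighbours set the 3 calls was not tested.

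In c37195_g2, 1 of 2 clusters of its component, the untreated and Cd-treated S. alfredii libraries lay far apart. Its S. alfredii values, each from 1 library, were 3.69 CPM without and 153 CPM with Cd. The untreated value rests on 12 reads, close to the minimum of the rule. In S. plumbizincicola it was at 73.5 and 123 CPM in untreated A and B and 152 and 179 CPM in Cd-treated A and B. The untreated S. alfredii library was thus far below the other 5, and with Cd the groups overlapped (log2 ratio 4.74 without and 0.12 with Cd, difference -4.62, SE 0.54, adjusted p = 0.0344).

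In c36408_g4 the libraries of both species differed between doses, in opposite directions. It was at 115 and 124 CPM in untreated A and B and at 21.4 and 14.0 CPM in Cd-treated A and B, against 59.0 CPM in untreated and 121 CPM in Cd-treated S. alfredii. The species order was therefore reversed between doses, with each replicate pair close together (log2 ratio 1.02 and -2.79, difference -3.81, SE 0.39, adjusted p = 0.0321). It is 1 of 6 clusters of its component.

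The same reversal was seen in c38977_g1, the remaining call, which was named after its values were seen. It is 1 of 3 clusters of its component. It was at 187 and 153 CPM in untreated A and B and 28.1 and 29.2 CPM in Cd-treated A and B, against 57.1 and 87.4 CPM in untreated and Cd-treated S. alfredii. The S. plumbizincicola libraries stood above S. alfredii without Cd and below it with Cd (log2 ratio 1.56 and -1.61, difference -3.17, SE 0.35, adjusted p = 0.0321). In TPM its S. alfredii libraries were equal, at 71.6 and 71.0, so the change between doses on that scale lay in S. plumbizincicola. None of the interaction calls passed the edgeR test between species with dose as a term. The log2 ratio there was 1.42 for c37195_g2 (SE 0.96, adjusted p = 0.256). It was -0.94 for c36408_g4 (SE 0.90, adjusted p = 0.407) and -0.10 for c38977_g1 (SE 0.75, adjusted p = 0.917). The median SE of that ratio over all transcripts was 0.21. In the same edgeR test on component sums the log2 ratio was 2.73 for the component of c37195_g2 (SE 0.30, adjusted p = 2.8e-05). It was -0.99 for that of c36408_g4 (SE 0.78, adjusted p = 0.312) and 0.43 for that of c38977_g1 (SE 0.57, adjusted p = 0.551).

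**Figure D4:**
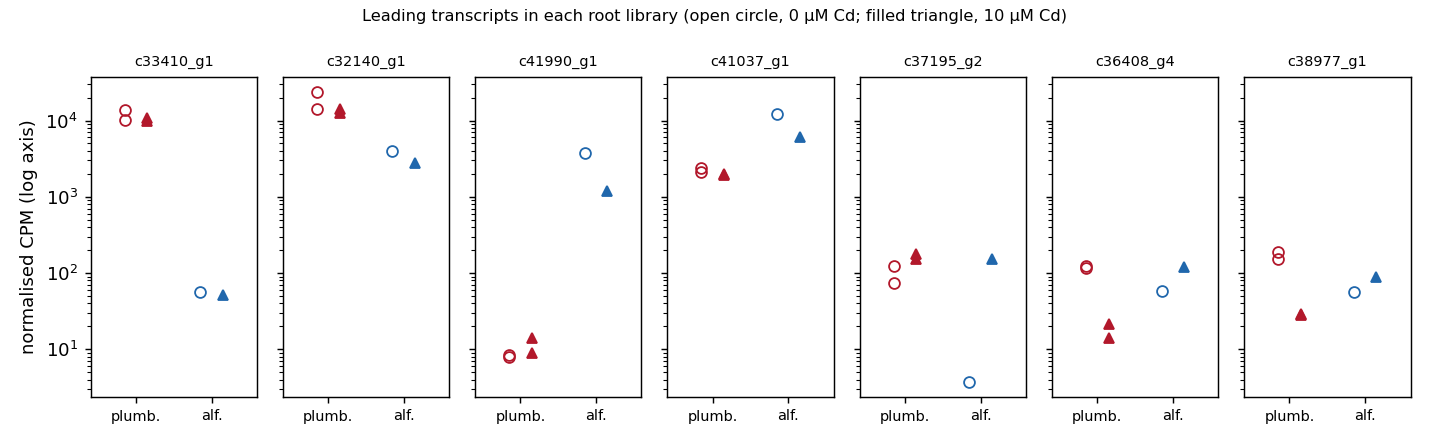
Normalised CPM (log axis) of the 7 transcripts described for the species difference and its dependence on dose, in each of the 6 root libraries (red, S. plumbizincicola; blue, S. alfredii; open circles 0 µM, filled triangles 10 µM Cd). The first 4 panels keep the species apart at both doses, c37195_g2 is low only in the untreated S. alfredii library, and in c36408_g4 and c38977_g1 the Cd-treated S. plumbizincicola libraries lie lowest.

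The dose term itself, shared by both species, passed the test for 10 transcripts (0.0823%), 6 higher (0.0494%) and 4 lower (0.0329%) with Cd, and in all 10 the dose ratios of the species had the same sign. Their log2 changes reached 1.89 and -2.08. This count is not stable. It fell to 3, 0 and 4 without untreated A, Cd-treated A and Cd-treated B of S. plumbizincicola, to 2 with limma on log2(TPM + 1) and to 4 with length offsets, and rose to 33 with DESeq2, 52 with edgeR's filterByExpr filter and 127 with no filter.

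Shoot libraries, which the rule did not use, showed how far the root differences hold in the plant. In shoots 7929 of the 12148 transcripts differed between species (65.3%), 3828 higher in S. plumbizincicola (31.5%) and 4101 higher in S. alfredii (33.8%). Of the 12148 transcripts 10144 had at least 10 reads in each of the 12 libraries, and across them the root and shoot log2 ratios had a Pearson correlation of 0.641 and a Spearman correlation of 0.630, with the transcript set and its alignment in common. Among transcripts called higher in S. plumbizincicola roots and read in all libraries, 2288 of 2738 (83.6%) had the same sign in shoots, with a median log2 ratio of 1.02 in roots and 0.88 in shoots. Among those called higher in S. alfredii roots 2660 of 3192 (83.3%) did, with medians of -1.02 and -0.99. Agreement grew with size: 92.1% of the 63 transcripts at 8-fold or more toward S. plumbizincicola and 94.0% of the 67 toward S. alfredii kept the sign, against 78.6% of 2890 called under 2-fold.

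The difference between organs was itself tested. The species ratio differed between roots and shoots for 4159 of 12148 transcripts (34.2%), 2117 with the ratio more toward S. plumbizincicola in roots (17.4%) and 2042 in shoots (16.8%) (edgeR, species by tissue term, all 12 libraries). Leaving out the untreated S. alfredii root library gave 2637, and leaving out the Cd-treated one gave 2719. On log2(TPM + 1) with limma the number was similar but its split was 670 and 3504, with the median of all transcripts shifted to -0.51. Among the 4159, 240 were higher in S. plumbizincicola roots and higher in S. alfredii shoots, and 265 the reverse, each difference called.

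**Figure D5:**
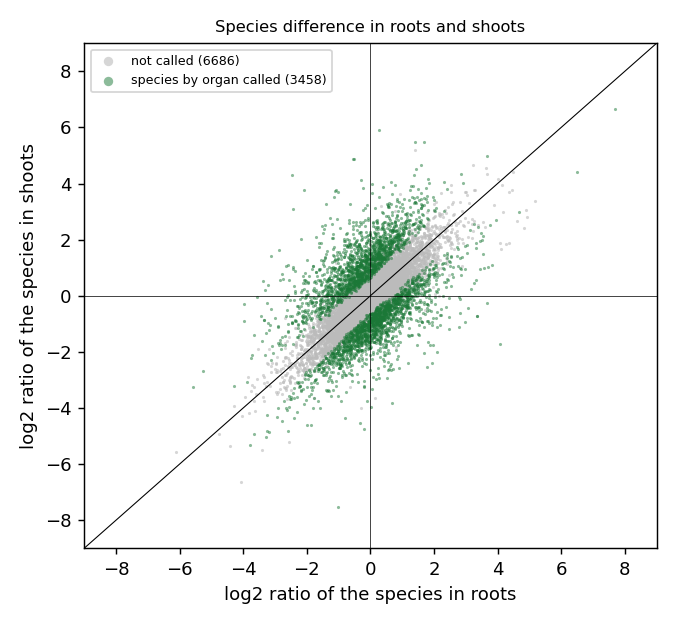
Log2 ratio of S. plumbizincicola to S. alfredii in roots (x axis) and shoots (y axis) for the 10144 transcripts with at least 10 reads in each of the 12 libraries; the diagonal marks equal ratios. The 3458 transcripts called for a species-by-organ difference lie away from the diagonal. Some of those not called do as well, such as c29707_g1 (0.14 in roots and -3.64 in shoots), so not being called does not mean equal ratios.

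At the extremes of this test, shoot libraries of 1 or both species held few or no reads. The transcript c42683_g1 was at 263 and 461 CPM in untreated A and B and 311 and 345 CPM in Cd-treated A and B roots, with 0 reads in the 4 S. plumbizincicola shoot libraries, and at 9.52 and 3.94 CPM in S. alfredii roots with 11 and 9 shoot reads. It was root-restricted in S. plumbizincicola and low throughout S. alfredii (adjusted p = 8.76e-05). The transcript c31686_g1 was at 14.4 to 40.8 CPM in S. plumbizincicola roots and 151 and 500 CPM in S. alfredii roots, with 0 reads in every shoot library except the Cd-treated S. alfredii shoot, which had 2674. Its call rests on that library (edgeR adjusted p = 4.2e-06 with it and 1 without), and DESeq2 and limma did not make it (adjusted p = 0.0843 and 0.648).

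In the other direction c40557_g1 was at 57.5 to 77.0 CPM in S. plumbizincicola roots and 331 and 220 CPM in S. alfredii roots, while its shoot CPM were 160 to 214 in S. plumbizincicola and its shoot reads 0 and 1 in S. alfredii (adjusted p = 7.49e-09). The CPM groups in roots did not overlap, but per length they did, at 58.9 to 103 TPM in S. plumbizincicola and 145 and 98.2 TPM in S. alfredii. The transcript c43635_g3 was at 117 to 177 CPM in S. plumbizincicola roots and 492 and 315 CPM in S. alfredii roots, with 10.4 to 18.3 CPM in S. plumbizincicola shoots and 1 and 0 reads in S. alfredii shoots (adjusted p = 4.34e-06). Both were thus higher in S. alfredii roots on the CPM scale and read almost only in S. plumbizincicola among shoots.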

How the data were processed

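Per the submitters' processing notes, reads passed through FastQC, Bowtie (alignment) and RSEM (quantification); versions, assembly and trimming are not given in the sources used here. The deposited tables hold, per the file headers, 1 expected count, TPM, FPKM, isoform-weighted length and effective length for each cluster. Length offsets used the effective length. Expected counts as deposited, of which 98.7% to 99.4% of values above 0 were exactly whole, were rounded and tested; deposited TPM entered an alternative test and rankings, and deposited FPKM values were not used.

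Differences were tested in R 4.3.3 with edgeR 4.0.16 (robust quasi-likelihood F-test with TMM factors on total reads, Benjamini-Hochberg threshold 0.05). The additive fit had species and dose terms (3 residual degrees of freedom, biological coefficient of variation 0.160), the interaction fit 2 degrees (0.171) and the fit with shoots 6 (0.168). Shoot CPM use factors over all 12 libraries. limma 3.58.1 and DESeq2 1.42.0 served as alternatives, beside other scaling, filters, thinning, length offsets and leaving out libraries. The functions were tested on simulated data.

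Leading transcripts were, per direction, the call with the largest ratio and the one of highest average level without group overlap, and, for interactions, the most extreme coefficients, at an average log2 CPM of at least 1. The transcript rule, tests and lists were chosen with earlier results of these data known. The chi-square between replicates A and B, over its degrees of freedom, was 18.9 untreated and 3.84 with Cd, above sampling noise. The 95% intervals of the species ratio use the SE of the edgeR fit, which includes the spread between libraries. Gene lists and markers were not used, since 0 IDs carry names, and the 454 library of pooled organs was not analysed here.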

Additional observations from a re-analysis of the deposited data

Results flagged for a closer look

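The species difference in roots depended on dose for 3 transcripts by the interaction test: c37195_g2 (log2 difference between doses -4.62), c36408_g4 (-3.81) and c38977_g1 (-3.17). The first 2 were set by the naming rule and the last is the remaining call. In each, the S. alfredii arm has 1 library per dose.

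The species difference depended on organ for 4159 transcripts. The most extreme fitted coefficients were 12.07 for c42683_g1, 9.93 for c31686_g1, -11.48 for c40557_g1 and -7.28 for c43635_g3. Each of these has shoot libraries at 0 reads, so the fitted size depends on the prior count and is no bound. No group of 1 species, organ and dose held 4 or more libraries, so single libraries were not examined for outlying values.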

How the results depend on the processing

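In the species contrast with dose as a term, 18 of 21 alternatives gave a count within 1.5 times of 7320. The others were 2900 of 4813 tested with at least 50 reads per root library, 3851 of 6370 in single-cluster components (60.3% and 60.5%, fewer transcripts tested) and 2203 by glmTreat against a 2-fold difference; leaving out 1 library gave 5102 to 7150. Similar counts need not be the same calls: limma on log2(TPM + 1) called 5837, of which 5195 were among the 7320 and 5126 of those in the same direction. The untreated and Cd-treated contrasts gave 2832 and 2654 with DESeq2, 3331 and 3279 with limma on log2(TPM + 1), 1972 and 1939 with at least 50 reads, 2758 and 2737 in single-cluster components, and 4121 to 5406 and 4174 to 5534 with 1 library left out. The cause of the lower DESeq2 and limma counts was not tested.

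For dependence on dose the count was 8 with DESeq2, 30 without a filter and 5 to 22 with 1 library left out. It was 0 with length offsets (401 at an unadjusted p under 0.05), 0 with at least 50 reads (178) and 0 in single-cluster components (237); the latter 2 sets do not hold the 3 called transcripts. A replicate block gave 290 for dependence on dose (187 toward S. plumbizincicola under Cd and 103 toward S. alfredii, the 3 included), 55 for the dose term, 7266 for species with dose as a term, 7048 and 7041 at the single doses and 4656 for organ. Same-letter deviations correlated at 0.439 across transcripts between doses, but the labels do not say what the letters share, and the roots hold only letters A and B.

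For organ the count was 1864 with at least 50 reads, 2166 in single-cluster components and 2637 to 4145 with 1 library left out. Without the Cd-treated S. alfredii shoot c31686_g1 reversed to -3.49 (-3.49 to 10.98 with any 1 library left out), with 0 reads then left in all shoots. Upper-quartile factors, filterByExpr and no filter shifted the median species ratio to between 0.14 and 0.15, and 56.7% to 57.0% of calls were then toward S. plumbizincicola, against 49.3%. The floor of 8 CPM was chosen after seeing the data. Thinned to the smallest library, 6464 were called for species and 2992 for organ.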

Other observations

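A second deposited measure, the isoform-weighted length, also separated the species in roots. Among the 11083 transcripts with several isoforms, mean length differed between species by more than 1.1-fold for 5920 (53.4%) and by more than 1.5-fold for 1564 (14.1%). Between replicates A and B the corresponding shares were 16.9% and 1.56% without Cd and 18.4% and 1.80% with Cd. With all 4 S. plumbizincicola libraries on one side of both S. alfredii libraries, 895 transcripts (8.08%) were longer by more than 1.5-fold in S. plumbizincicola and 659 (5.95%) in S. alfredii. The length is RSEM's weighting of assembled isoforms, and no test was run on it.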
